A study of Rattus norvegicus with 372 samples.

Results

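Primary rat hepatocytes exposed to simvastatin at 2.4 µM for 24 h were compared with hepatocytes exposed to the vehicle alone. The members were every well whose labels gave simvastatin and 2.4 µM, and these came to 12 of the 372 libraries of the series, with 6 in the whole-transcriptome (WT) assay and 6 in the S1500+ surrogate gene (ST) assay. They were set against 18 vehicle libraries, 9 per assay. The experiment was run in 2 batches, each with hepatocytes of a different male Wistar rat, and both TempO-Seq assays were run on lysate from each well. In TempO-Seq, pairs of detector oligos are ligated on their target RNA and the ligated products are sequenced and counted.

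All cells were kept between layers of bovine type I collagen in medium with insulin, dexamethasone and EGF, and simvastatin and vehicle wells alike held 0.5% DMSO. In batch 1 the 3 simvastatin wells and the 3 vehicle wells were on plate 4. In batch 2 the 3 simvastatin wells were on plate 2, together with 3 vehicle wells, and the other 3 vehicle wells were on plate 3. Wells of a batch share the cells of 1 rat, so p-values measure the spread between wells and rest on 2 rats, and rat, plate and sequencing run cannot be told apart in a comparison between batches. For comparison, the same chemical at 60 µM and ketoconazole at 15 µM, each with 3 wells per batch and assay, were taken from the same table, together with wells of culture medium alone.

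Simvastatin is a statin, a class of drugs that block the mevalonate pathway, from which cells make cholesterol and the isoprenoid groups attached to proteins. When sterols run low in the endoplasmic reticulum, the membrane-bound transcription factor SREBP2 is carried to the Golgi, cleaved and released, and it activates genes for cholesterol synthesis and for LDL uptake. Oxysterols made from cholesterol activate another factor, LXR, whose targets move cholesterol out of the cell and promote fatty acid synthesis.

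Read depth in the WT assay was 5985847 to 7704376 reads for the simvastatin wells and 5492941 to 8264980 reads for the vehicle wells. In the ST assay it was 998176 to 1991154 and 984283 to 1643796 reads. Pearson correlation of log counts between wells of a group was at least 0.986 in the WT assay and 0.979 in the ST assay. Levels below are counts per 1000000 (CPM) of TMM-scaled libraries, and changes are log2 fold changes (L2FC) with their standard error. A gene was called differentially expressed (DEG) at a Benjamini-Hochberg adjusted p under 0.05 in edgeR's quasi-likelihood test, in a model that also held batch. Unless the ST assay is named, values are from the WT assay.

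Among genes called over both batches and in each batch alone, the largest rises with simvastatin at 2.4 µM lay in cholesterol synthesis. Of 10191 genes tested, 245 (2.40%) were DEGs, 115 (1.13%) higher and 130 (1.28%) lower than in vehicle. A fit of only the wells compared gave 534 DEGs, 254 higher and 280 lower. All 7 genes tested of the mevalonate arm rose, with a median L2FC of 2.09, and 8 of 9 genes of the sterol arm rose, with a median of 1.40. Across all genes the median was -0.00. Of the 115 genes that rose, 15 were cholesterol synthesis genes and 25 belonged to the synthesis, SREBP2 or fatty acid lists. Only 38 of the 245 DEGs were in any of the 25 lists examined, so most DEGs lay outside these pathways. A fold threshold narrowed the set to 50 genes with an absolute L2FC of at least 1 (0.491% of genes tested), of which 28 rose (0.275%) and 22 fell (0.216%). Which side held more genes thus depended on the setting. Of the 28 genes that rose past the fold threshold, 12 were cholesterol synthesis genes and 18 belonged to the synthesis, SREBP2 or fatty acid lists.

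The first steps of the pathway join acetyl groups into mevalonate. Acat2, the cytosolic thiolase that joins 2 acetyl-CoA molecules, measured 96.0, 97.1 and 91.8 CPM in the simvastatin wells of batch 1 and 28.3, 41.8 and 30.9 CPM in vehicle. In batch 2 its simvastatin wells measured 101, 56.7 and 113 CPM, and the 6 vehicle wells 11.8 to 17.8 CPM with a median of 13.4. The groups did not overlap in either batch, and the L2FC was 2.17 ± 0.17 (adjusted p = 8.07e-23). Hmgcs1, which makes HMG-CoA, measured 22.9, 19.1 and 14.3 CPM with simvastatin in batch 1 and 5.17, 4.46 and 8.19 CPM in vehicle. In batch 2 its simvastatin wells measured 26.9, 16.8 and 26.4 CPM, and vehicle wells 2.15 to 4.20 CPM with a median of 3.13. Every treated well again lay above every vehicle well of its batch, with an L2FC of 2.38 ± 0.20 (adjusted p = 4.66e-20).

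Mvk, which phosphorylates mevalonate, rose with an L2FC of 0.77 ± 0.10 (adjusted p = 1.02e-10). The later mevalonate steps rose further. Mvd, which decarboxylates mevalonate diphosphate, had an L2FC of 2.09 ± 0.18 (adjusted p = 1.32e-20), and Idi1, the isomerase of its product, an L2FC of 2.33 ± 0.19 (adjusted p = 9.43e-21). Idi1 measured 34.2 to 74.8 CPM over the 6 simvastatin wells and 5.23 to 23.4 CPM over the 9 vehicle wells. Fdps, which builds farnesyl diphosphate at the branch point to prenylated proteins, had an L2FC of 1.82 ± 0.18 (adjusted p = 7.49e-16).

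The promoters of 3 rising synthesis genes and of Insig1, taken up next, are shown because members that moved together allow a look for shared letters. Each line gives the 250 bases before the transcription start from RefSeq on the GRCr8 build, 5′ to 3′ along the gene, and this build is not the one the authors aligned to. Capitals mark the motif CACNCCAC, known as a sterol regulatory element, and the motif CCAAT, which NF-Y binds, searched on both strands. No match of one motif overlapped a match of the other in these windows.
Hmgcs1, chr2:53382054-53382303, plus strand: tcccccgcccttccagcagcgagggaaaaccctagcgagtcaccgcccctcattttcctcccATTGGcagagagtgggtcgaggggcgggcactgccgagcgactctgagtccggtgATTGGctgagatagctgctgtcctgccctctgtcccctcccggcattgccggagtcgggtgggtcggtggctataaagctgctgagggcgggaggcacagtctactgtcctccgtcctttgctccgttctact
Acat2, chr1:50100590-50100839, plus strand: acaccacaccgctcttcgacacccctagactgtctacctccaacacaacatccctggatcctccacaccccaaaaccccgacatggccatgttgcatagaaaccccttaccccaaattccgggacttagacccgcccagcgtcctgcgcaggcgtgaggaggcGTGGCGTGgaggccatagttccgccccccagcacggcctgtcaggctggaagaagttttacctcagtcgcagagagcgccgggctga
Mvd, chr19:67414975-67415224, minus strand: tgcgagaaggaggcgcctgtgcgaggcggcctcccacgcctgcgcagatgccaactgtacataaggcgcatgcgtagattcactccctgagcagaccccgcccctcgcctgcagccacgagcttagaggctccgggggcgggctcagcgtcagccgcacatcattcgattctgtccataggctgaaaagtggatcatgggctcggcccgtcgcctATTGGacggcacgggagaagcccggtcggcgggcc
Insig1, chr4:8057770-8058019, minus strand: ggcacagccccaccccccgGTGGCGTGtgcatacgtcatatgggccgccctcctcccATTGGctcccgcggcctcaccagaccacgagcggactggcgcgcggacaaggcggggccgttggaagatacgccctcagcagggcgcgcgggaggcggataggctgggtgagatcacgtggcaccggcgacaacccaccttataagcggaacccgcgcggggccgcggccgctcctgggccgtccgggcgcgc
Hmgcs1 held CCAAT on the opposite strand at bases 63 to 67 and 118 to 122, and Mvd held it there at bases 216 to 220. Acat2 held CACNCCAC on the opposite strand at bases 164 to 171, and Insig1 at bases 20 to 27 beside CCAAT at bases 58 to 62. Of the 25 genes of the synthesis, SREBP2 and fatty acid lists that rose, 18 had an entry, and 14 of these held CCAAT and 3 held CACNCCAC. Among 33469 promoter windows of the same length, 34.0% held CCAAT and 4.89% held CACNCCAC. A match describes letters only and was not tested for binding.

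In the sterol arm, Fdft1, the squalene synthase that commits the pathway to sterols, had an L2FC of 1.64 ± 0.15 (adjusted p = 5.11e-18). Sqle, which forms squalene epoxide, had an L2FC of 1.33 ± 0.17 (adjusted p = 1.73e-10), and Lss, which closes the rings to lanosterol, one of 1.40 ± 0.16 (adjusted p = 2.66e-13). Cyp51, the lanosterol demethylase, measured 245, 272 and 268 CPM with simvastatin and 93.8, 103 and 94.6 CPM with vehicle in batch 1. In batch 2 it measured 138, 201 and 215 CPM with simvastatin and 20.0 to 34.3 CPM, with a median of 25.6, in vehicle. Treated and vehicle wells did not overlap in either batch, with an L2FC of 2.19 ± 0.21 (adjusted p = 7.01e-17).

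The demethylation steps that follow were not equally changed. Msmo1, the methylsterol oxidase, had the largest L2FC of the genes called in each batch alone, 2.45 ± 0.18 (adjusted p = 6.36e-25). Its simvastatin wells measured 50, 47.2 and 53.1 CPM in batch 1 and 44.3, 33.3 and 50.8 CPM in batch 2. Vehicle wells measured 11.1, 15.5 and 13.5 CPM in batch 1 and 5.23 to 7.13 CPM in batch 2, and no vehicle well reached a treated one. Nsdhl, which acts with Msmo1 on the same carbon, rose by an L2FC of only 0.62 ± 0.07 (adjusted p = 1.92e-13). Hsd17b7, the reductase of that step, had an L2FC of 1.60 ± 0.18 (adjusted p = 3.05e-13).

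Dhcr7, a reductase of the final steps, rose with an L2FC of 1.32 ± 0.14 (adjusted p = 1.11e-14). For the 15 synthesis genes that rose, all simvastatin wells lay above all vehicle wells of the same batch, in both batches. Of all genes tested, 1.10% did so, 1.26% had all simvastatin wells below, and 2.36% were separate in one direction or the other. Of the listed synthesis genes, 1 of 8 in the mevalonate arm and 3 of 12 in the sterol arm were not tested (Pmvk, Tm7sf2, Ebp and Sc5d).

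**Figure D1:**
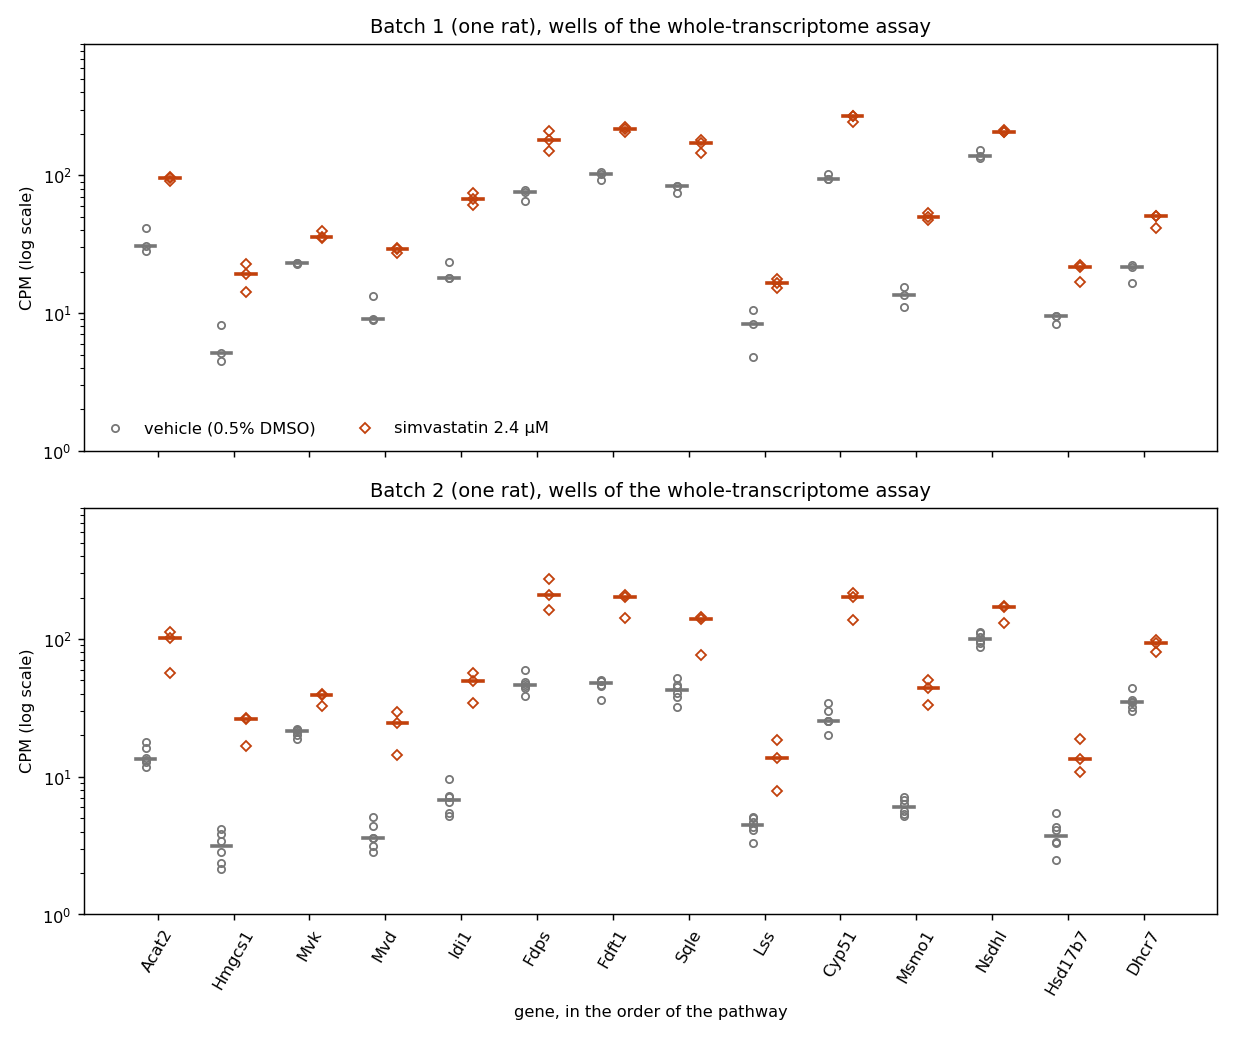
CPM on a log scale for 14 of the 16 tested cholesterol synthesis genes in the order of the pathway, by well, in batch 1 (top) and batch 2 (bottom), with circles for vehicle, diamonds for simvastatin at 2.4 µM and short bars for group medians. For every gene shown the simvastatin wells stand clear of the vehicle wells in both batches, and in batch 2 Hmgcs1 and Idi1 start from vehicle medians of 3.13 and 6.81 CPM.

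Genes that sense sterols or handle cholesterol made up the next group, in which 5 of 16 tested genes rose and none fell, with a median L2FC of 0.06. Insig1, which holds SREBP in the endoplasmic reticulum and is itself a target, measured 1550, 1670 and 1740 CPM with simvastatin in batch 1 and 623, 713 and 722 CPM in vehicle. The batch 2 wells measured 1430, 1330 and 1500 CPM with simvastatin and 540 to 966 CPM, with a median of 637, in vehicle. The groups were separate in both batches, with an L2FC of 1.19 ± 0.14 (adjusted p = 3.36e-12). Insig2, its relative, had an L2FC of 0.02 ± 0.14 (adjusted p = 0.981).

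Srebf2, which encodes SREBP2, rose, with wells of 214 to 239 CPM against 132 to 171 CPM in vehicle and an L2FC of 0.68 ± 0.06 (adjusted p = 1.32e-20). Stard4, a carrier of cholesterol between membranes, rose with an L2FC of 0.91 ± 0.13 (adjusted p = 6.51e-08). Tmem97, a membrane protein of the endoplasmic reticulum and lysosome, was called with both batches together (L2FC 0.75 ± 0.17, adjusted p = 0.0019), but in batch 1 alone it had an L2FC of 0.31 (adjusted p = 0.590) and its wells overlapped. The SREBP escort Scap had an L2FC of 0.10, the SREBP proteases Mbtps1 and Mbtps2 0.02 and -0.05, and the lysosomal cholesterol exporters Npc1 and Npc2 -0.11 and 0.13, none of them called. The HDL receptor Scarb1 had an L2FC of 0.26 ± 0.11 (adjusted p = 0.297).

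Targets of LXR and genes of cholesterol efflux moved the other way where they moved at all. Of 8 tested, 2 fell and none rose, and the list's median L2FC was -0.26. Abcg1, an exporter of cholesterol to HDL, measured 2.41, 0.823 and 1.46 CPM with simvastatin in batch 1 and 11.3, 13.8 and 8.53 CPM in vehicle. In batch 2 it measured 0.777, 1.28 and 0.812 CPM with simvastatin and 5.35 to 8.27 CPM, with a median of 7.54, in vehicle. The wells were separate in both batches. The L2FC of Abcg1, -2.85 ± 0.27 (adjusted p = 7.01e-17), was the largest fall among genes called in each batch alone, and it rested on 5 to 17 reads per treated well.

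Lpl, lipoprotein lipase, measured 26.2, 40.6 and 24.5 CPM with simvastatin in batch 1 and 50, 53.4 and 45 CPM in vehicle. The wells of batch 2 measured 7.12, 5.69 and 5.45 CPM with simvastatin and 8.59 to 15.5 CPM in vehicle. Treated wells lay below vehicle wells in both batches, with an L2FC of -0.94 ± 0.17 (adjusted p = 2.82e-05). Abca1, which loads cholesterol onto apolipoprotein A-I, had an L2FC of -0.22 ± 0.18 (adjusted p = 0.657), and its wells overlapped in both batches. Scd, the stearoyl-CoA desaturase, had an L2FC of -0.11 ± 0.19 (adjusted p = 0.867), Mylip, a ubiquitin ligase, one of -0.57 ± 0.28 (adjusted p = 0.367), and the receptors Nr1h3 and Nr1h2 had -0.18 and 0.07. Smpdl3a, a phosphodiesterase, had -0.30 (adjusted p = 0.551), and Abcg5, Abcg8, Lpcat3 and Pltp were not tested.

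Srebf1, which encodes SREBP1, was measured in both assays. In batch 1 of the WT assay its simvastatin wells, 16.6, 11.7 and 12.8 CPM, lay below its vehicle wells, 22.5, 26.8 and 21.3 CPM, with an L2FC of -0.78 (adjusted p = 0.00133). In batch 2 the ranges of 12.4 to 14.9 and 12.6 to 18.7 CPM overlapped, with an L2FC of -0.17 (adjusted p = 0.599). Over both batches the L2FC was -0.43 ± 0.14 (adjusted p = 0.0770), and in the ST assay -0.62 ± 0.17 (adjusted p = 0.0094). Without simvastatin well 1 of batch 1 the ST value was -0.49 (adjusted p = 0.0893), and with vehicle wells of the same plate only it was -0.57 (adjusted p = 0.0528), so neither was called. The difference of its effects between batches had an adjusted p of 0.237 in the WT assay and 0.0411 in the ST assay.

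In fatty acid synthesis, 5 of 14 tested genes rose and none fell, with a median L2FC of 0.17. Elovl6, which lengthens palmitate, measured 4.53, 7.73 and 9.54 CPM with simvastatin and 1.92, 2.5 and 1.71 CPM with vehicle in batch 1. The wells of batch 2 measured 4.01, 1.99 and 8.81 CPM with simvastatin and 0.550 to 1.61 CPM in vehicle. Treated wells varied widely but lay above vehicle in both batches, with an L2FC of 2.06 ± 0.33 (adjusted p = 1.38e-06). Aacs, which activates acetoacetate for lipid synthesis, had an L2FC of 1.80 ± 0.26 (adjusted p = 5.39e-08), and Fads1, the delta-5 desaturase, one of 1.38 ± 0.15 (adjusted p = 3.11e-13).

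Fasn, fatty acid synthase, rose with an L2FC of 1.06 ± 0.16 (adjusted p = 2.02e-07), and Acly, which supplies cytosolic acetyl-CoA to both pathways, with 0.60 ± 0.09 (adjusted p = 4.81e-07). Gpam, which starts glycerolipid synthesis, had an L2FC of -0.32 ± 0.17 (adjusted p = 0.429). The medium without DMSO also differed from vehicle in several of these genes. Against vehicle, it had an L2FC of 2.78 for Scd, 0.69 for Fasn and 0.68 for Acly, and 2 of 7 mevalonate, 3 of 9 sterol and 6 of 14 fatty acid genes were higher in medium, where 12.6% of all genes were called and 7.51% were higher.

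Genes that use the isoprenoid products held no call. None of 13 tested genes of the isoprenoid branch and protein prenylation was called, and their L2FC ran from -0.27 to 0.25 with a median of -0.06. Examples are Fnta, a subunit of the farnesyl and geranylgeranyl transferases, with -0.06 ± 0.09, Rabggta, of the Rab prenylating enzyme, with 0.09 ± 0.09, and Dhdds, of dolichol synthesis, with -0.27 ± 0.15. The 16 tested genes of the small GTPase, actin and YAP or SRF list likewise held no call, with a median of 0.08, and the small GTPases Rhoa, Cdc42 and Rac1 had L2FC of 0.18, 0.08 and 0.07. At an unadjusted p under 0.05, edgeR gave 0 of the isoprenoid and 2 of the small GTPase, actin and YAP or SRF genes, and DESeq2 called none in either list. No share of all genes at that unadjusted p is given beside these counts.

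**Figure D2:**
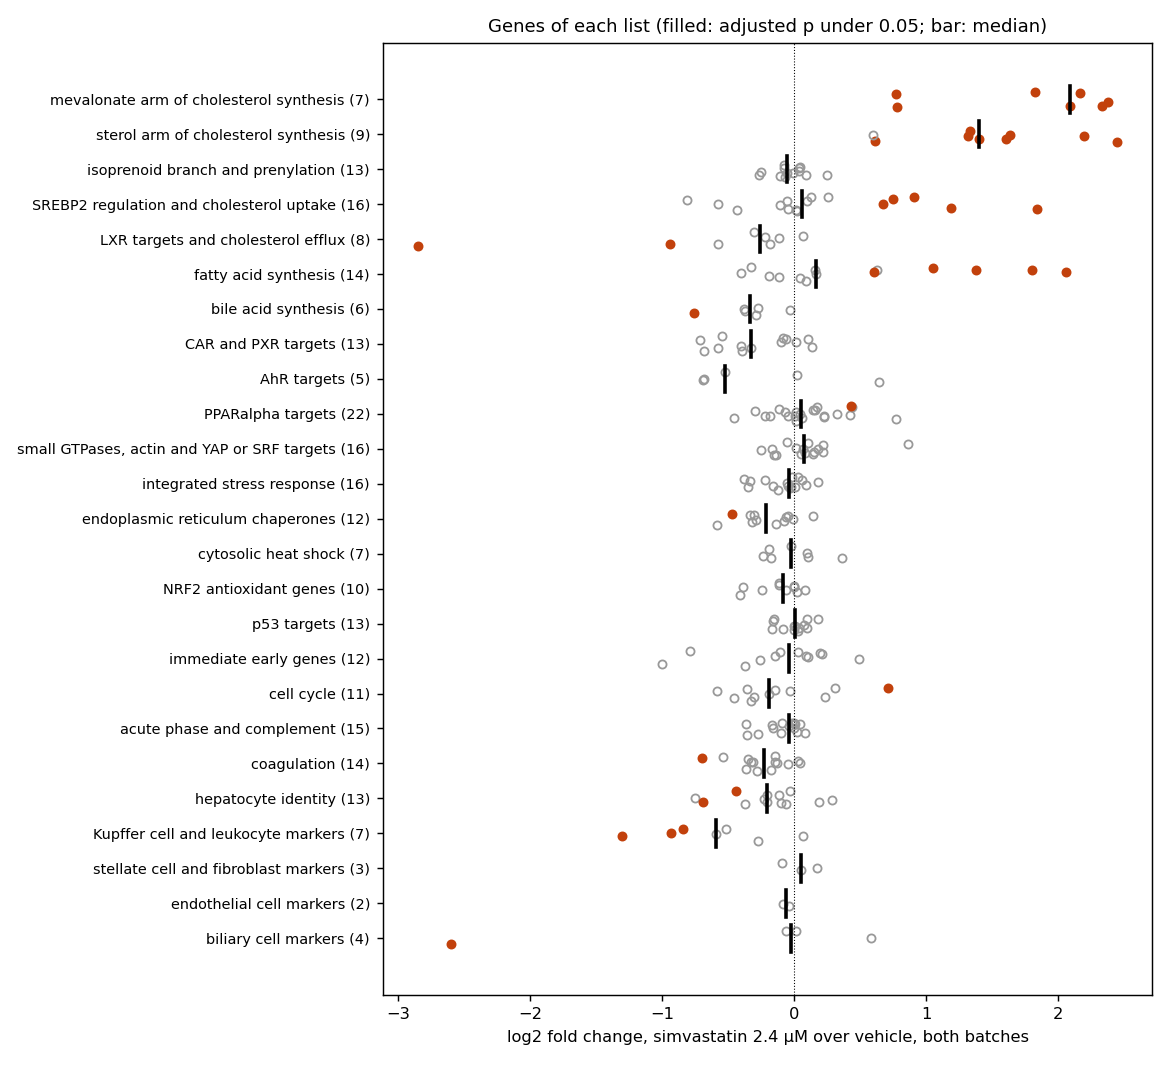
L2FC of simvastatin at 2.4 µM over vehicle, both batches, for every tested gene of the 25 lists, with the number tested in brackets, filled points for DEGs and black bars for list medians. The mevalonate and sterol arms stand apart at medians of 2.09 and 1.40, while the medians of the other lists lie between -0.59 and 0.17.

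Outside cholesterol and fatty acid synthesis, calls in the lists were few. Of the 22 tested PPARα targets, 1 rose, Plin2, which coats lipid droplets, with an L2FC of 0.43 ± 0.10 (adjusted p = 0.0019). None of 13 CAR and PXR targets, 5 AhR targets, 16 genes of the integrated stress response, 7 heat shock genes, 10 NRF2 antioxidant genes, 13 p53 targets, 12 immediate early genes or 15 acute phase and complement genes was called by edgeR or DESeq2 in the WT assay over both batches. In edgeR, 3, 3, 2, 1, 1, 0, 2 and 2 of them, in that order, had an unadjusted p under 0.05. The share of all genes at that unadjusted p is not given here, so these counts have no background beside them. Some of these lists held calls elsewhere. Over both batches of the ST assay the CAR and PXR target Ephx1 had -0.42 ± 0.13 (adjusted p = 0.0292), the AhR target Cyp1a1 -0.74 ± 0.25 (adjusted p = 0.0383) and the heat shock gene Hspb1 0.54 ± 0.15 (adjusted p = 0.0091). In batch 1 alone the WT assay called Cyp1a1 (-1.10, adjusted p = 0.0052), Cyp2b3 (-1.43, adjusted p = 2.07e-05) and the complement gene C9 (-0.84, adjusted p = 0.0192). In batch 2 alone it called Cyp1a2 (-0.72, adjusted p = 0.0196) and the NRF2 target Gclc (-0.44, adjusted p = 0.0454). The ST assay in batch 1 alone called 2 of 16 CAR and PXR targets higher and 3 lower. It also called 1 AhR target lower and 1 heat shock gene higher. In batch 2 alone it called 1 AhR, 1 NRF2 and 1 immediate early gene lower, and 1 heat shock gene higher. Its batch difference was called for 1 CAR and PXR target in each direction and for 1 p53 target. Over both batches of the ST assay 8.81% of all genes were called. In bile acid synthesis 1 of 6 fell, the peroxisomal oxidase Acox2, with -0.76 ± 0.19 (adjusted p = 0.0089). In coagulation 1 of 14 fell, the thrombin inhibitor Serpind1 (-0.70 ± 0.16, adjusted p = 0.0043), and among endoplasmic reticulum chaperones 1 of 12, Edem1 (-0.47 ± 0.12, adjusted p = 0.0137).

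Of 13 hepatocyte identity genes 2 fell, the urea cycle enzyme Cps1 (-0.69 ± 0.16, adjusted p = 0.0040) and transferrin, Tf (-0.44 ± 0.13, adjusted p = 0.0334). Cps1 wells were below vehicle in both batches. In the cell cycle list 1 of 11 rose, cyclin Ccnd1 (0.71 ± 0.21, adjusted p = 0.0477). Without simvastatin well 3 of batch 1 or well 3 of batch 2 the calls of Acox2 and Edem1 were lost, with adjusted p up to 0.0722 and 0.118. The call of Ccnd1 was lost in 11 of 15 leave-outs, which took simvastatin wells and vehicle wells of both batches (adjusted p up to 0.188), and with DESeq2 (adjusted p = 0.0536), with vehicle wells of the same plate only (0.0989), without the count filter (adjusted p = 0.0750) and in batch 1 alone (adjusted p = 0.531). That of Tf was lost in 7 of 15, which were simvastatin wells 1 and 3 of each batch and vehicle wells 1, 3 and 5 of batch 2 (adjusted p up to 0.11). Tf was also not called with vehicle wells of the same plate only (adjusted p = 0.106), without the count filter (0.0657), in the ST assay (0.305), in batch 1 alone (0.474) or in batch 2 alone (0.0574). Plin2 and Edem1 were not called in batch 1 alone (adjusted p = 0.344 and 0.263), and Acox2 and Serpind1 not in batch 2 alone (0.154 and 0.165).

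The 12 largest falls called in each batch alone included genes outside the lists. Acot12, a cytosolic acetyl-CoA hydrolase, had an L2FC of -1.03 ± 0.13 (adjusted p = 2.17e-10), with treated wells of 34.4 to 48.1 CPM and vehicle wells of 76.1 to 97.5 CPM. Urad, of uric acid breakdown, had -1.08 ± 0.18 (adjusted p = 6.72e-06), and Dpys, of pyrimidine breakdown, -0.87 ± 0.16 (adjusted p = 8.36e-05). Hgd, of tyrosine breakdown, had -0.85 ± 0.15 (adjusted p = 2.82e-05), Abat, the GABA transaminase, -0.80 ± 0.16 (adjusted p = 0.000292), and Cdo1, of cysteine breakdown, -0.78 ± 0.16 (adjusted p = 0.000413). The neuropeptide gene Npb had an L2FC of -1.78 ± 0.28 and Fam55b one of -1.46 ± 0.30, on at most 43 and 61 reads per well. AABR07070117.1, an uncharacterised locus, had -0.95 ± 0.16 (adjusted p = 3.53e-06). Treated wells lay below vehicle wells in both batches for all of these genes, as for 1.26% of all genes tested. The genes were chosen as falls called in these same wells, so this separation is no further support.

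Markers of other liver cells were examined beside these falls. In bulk wells, fewer cells of a type and less RNA per cell cannot be told apart. Of 7 tested Kupffer cell and leukocyte markers 3 fell, the macrophage genes Cd5l (-1.30 ± 0.29, adjusted p = 0.0019), Clec4f (-0.93 ± 0.25, adjusted p = 0.0180) and Cd163 (-0.84 ± 0.24, adjusted p = 0.0268). None of the 3 was called in batch 1 alone, where Cd5l had -0.28 (adjusted p = 0.823), Clec4f -0.34 (adjusted p = 0.754) and Cd163 -0.25 (adjusted p = 0.801). The difference between batches was not called either (adjusted p = 0.209, 0.426 and 0.440). Their wells overlapped vehicle in batch 1 and lay below it in batch 2, where Cd5l measured 0.464 to 1.71 against 2.91 to 5.93 CPM. Of all genes tested, 20.8% had separate wells in batch 1 and 9.30% in batch 2. The call of Clec4f was lost without simvastatin well 3 of batch 1, simvastatin well 3 of batch 2 or vehicle well 5 of batch 2 (adjusted p up to 0.0863). Cd163 lost its call in 7 of 15 leave-outs, which were simvastatin wells 1 and 3 of batch 1, all 3 simvastatin wells of batch 2 and vehicle wells 3 and 5 of batch 2 (adjusted p up to 0.101). With vehicle wells of the same plate only, Clec4f had -0.78 (adjusted p = 0.126) and Cd163 -0.69 (adjusted p = 0.171), and neither was called. Summed over the 12 listed markers, simvastatin and vehicle wells held 75.0 to 104 and 91.8 to 113 CPM of all reads in batch 1, and 69.9 to 72.9 and 82.6 to 101 CPM in batch 2.

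The other marker sums overlapped in both batches. Over 9 stellate cell markers they were 263 to 528 CPM with simvastatin and 241 to 411 with vehicle, with Col1a1 and Des at no more than 1 and 2 reads per well. Endothelial markers summed to 4.41 to 11.6 and 5.78 to 12.6 CPM, with Stab2 at 3 reads or fewer, and biliary markers to 104 to 155 and 117 to 148 CPM, with Krt7 and Cftr at 1 read or fewer. In the biliary list Spp1, which also marks other cells, was called at an L2FC of -2.60 ± 0.60 (adjusted p = 0.0029) on 0 to 40 reads, but not in the ST assay (adjusted p = 0.0576) or in batch 1 alone (adjusted p = 0.161). Hepatocyte identity genes summed to 36000 to 44700 CPM with simvastatin and 37600 to 44700 with vehicle. The part of these markers in the falls of other genes was not tested.

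Tested in each batch alone, simvastatin gave 180 DEGs in batch 1 (1.77% of genes tested) and 262 in batch 2 (2.57%). These counts rest on few wells, with 94 in batch 1 without simvastatin well 3 and 105 without vehicle well 1 or 2. Batch 2 gave 73 without simvastatin well 3, 106 without well 1, and 437 with vehicle wells of the same plate only. The shares below were taken from the full counts. The batches shared 54 of these, 30.0% of the batch 1 calls and 20.6% of the batch 2 calls, and 53 had the same sign. These 53 genes (0.520%) were 29 that rose (0.285%) and 24 that fell (0.236%), and of the 29 that rose 15 were synthesis genes, 4 were in the SREBP2 list and 5 in the fatty acid list. Of the 24 that fell 2 were in the LXR list.

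The size of the response differed between batches for some of these genes. A test of the difference called 14 genes (0.137%), 11 of them (0.108%) with a higher L2FC in batch 2. This split was not kept in every fit. With vehicle wells of the same plate only it was 24 higher and 28 lower, and without simvastatin well 2 of batch 2 it was 15 higher and 25 lower. Acat2 had an L2FC of 1.49 in batch 1 and 2.68 in batch 2 (difference adjusted p = 0.0031), and Fasn 0.48 and 1.49 (adjusted p = 0.0011). Mvd, Cyp51 and Fdft1 were also called, with differences of 1.12, 1.36 and 0.88. Leaving out single wells moved the number of called differences from 14 to between 1 and 40, so its size rests on single wells, and it was 1 without simvastatin well 3 of batch 2.

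Levels in the vehicle wells differed between the batches for the same genes. Over the 15 synthesis genes that rose, the median vehicle CPM of batch 1 was 1.95 times that of batch 2 at the median, from 0.619 to 3.70, and it was higher in batch 1 for 14 genes. In the simvastatin wells the same ratio was 1.18 at the median, from 0.537 to 1.60. Across all genes the ratios were 1.01 and 1.02. Cyp51 in vehicle had medians of 94.6 CPM in batch 1 and 25.6 CPM in batch 2, and with simvastatin of 268 and 201 CPM. The levels of the batches thus lay closer together with simvastatin than with vehicle. For single genes this is the difference between batches tested above, and batch, rat and run cannot be told apart in it.

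**Figure D3:**
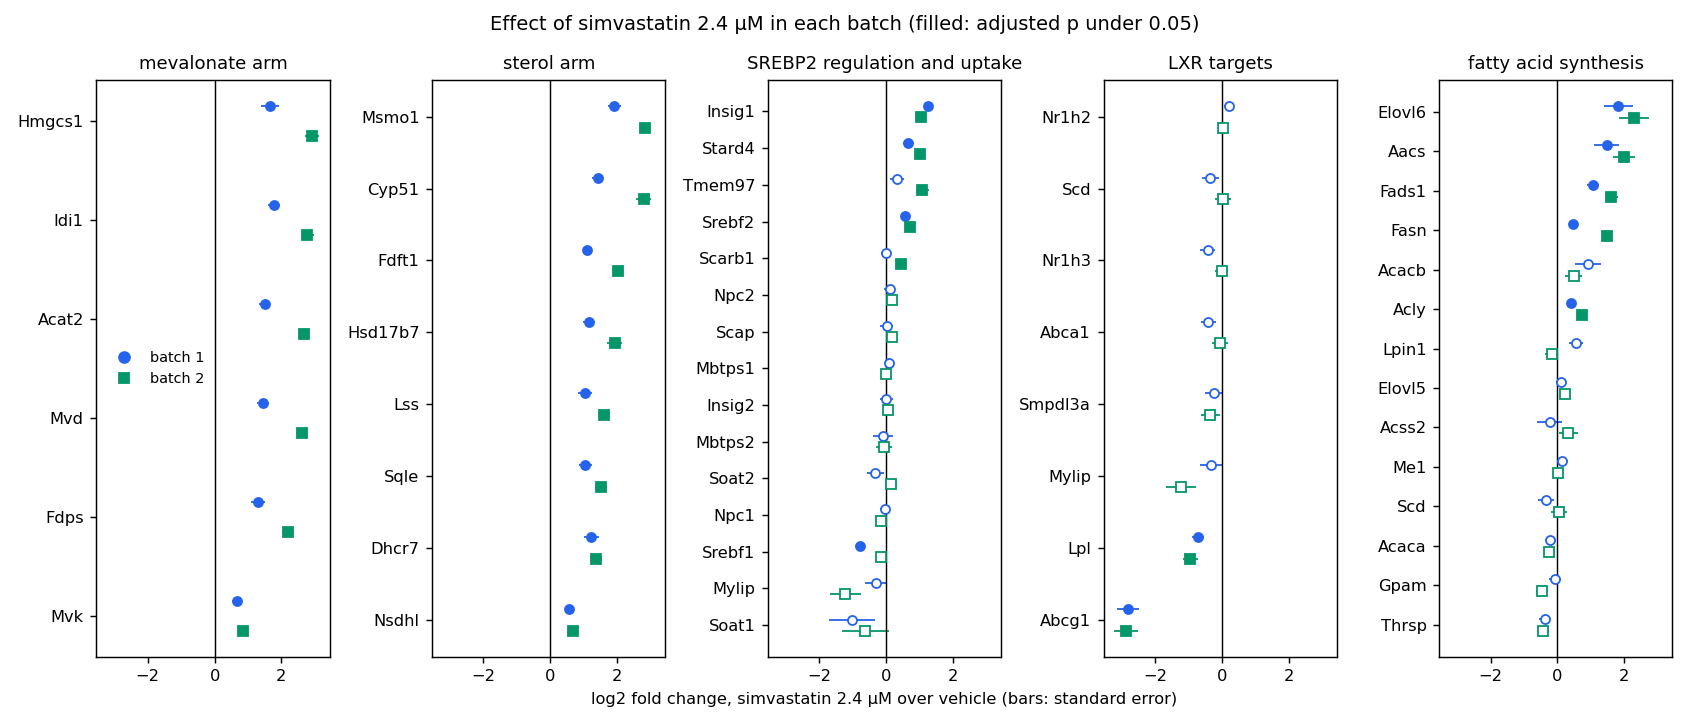
L2FC of simvastatin at 2.4 µM over vehicle for tested genes of 5 lists, batch 1 as circles and batch 2 as squares, with standard errors as bars and filled symbols for an adjusted p under 0.05 in that batch. Most filled synthesis genes lie farther right in batch 2 (Cyp51 at 1.42 and 2.80), and Abcg1 lies at -2.81 and -2.86.

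Well D09 of plate 2 gave a weaker response than the other 2 treated wells of batch 2. It was the lowest of the 3 wells for 13 of the 15 synthesis genes in the WT assay, and its median log2(CPM + 0.5) minus the vehicle mean was 1.61, against 2.13 and 2.19. The ST library of the same lysate was the lowest for 12 of 14 genes, with 1.54 against 2.29 and 2.41. The treated wells of batch 1 had medians of 1.05 to 1.31 in the WT assay, below that of well D09.

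The ST assay measured the same lysates with a smaller gene set. Of 1760 genes tested, 155 (8.81%) were DEGs, 68 higher (3.86%) and 87 lower (4.94%). With vehicle wells of the same plate only there were 47 higher and 38 lower. Without simvastatin well 1 of batch 1 there were 95 DEGs, 49 higher and 46 lower. Counts and shares below are from the full fit. All 6 mevalonate and 8 sterol arm genes tested rose. Msmo1 had an L2FC of 2.29 ± 0.17 in the ST and 2.45 ± 0.18 in the WT assay, Hmgcs1 2.05 ± 0.29 and 2.38 ± 0.20, and Lpl -1.02 ± 0.19 and -0.94 ± 0.17. Among 1603 genes tested in both assays, 99 were called in the WT and 147 in the ST assay. The 74 genes called in both were 74.7% of the WT calls and 50.3% of the ST calls, and all had the same sign. Tmem97 was not called in the ST assay (0.50 ± 0.20, adjusted p = 0.0919). Both assays used the same wells, so this compares measurements of a lysate and adds no rat.

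At 60 µM the same chemical changed many more genes, with 2436 DEGs against vehicle (23.9%). Tested directly, 2443 genes (24.0%) differed between 2.4 and 60 µM. For some synthesis genes, and for Srebf2 of the SREBP2 list, the direct contrast found no difference past the threshold. Msmo1 had an L2FC of 2.45 at 2.4 µM and 2.42 at 60 µM (difference 0.03 ± 0.18), Hmgcs1 2.38 and 2.44 (-0.06 ± 0.20), Cyp51 2.19 and 2.35 (-0.16 ± 0.23) and Srebf2 0.68 and 0.69 (-0.02 ± 0.06). Abcg1 had -2.85 and -2.50 (-0.35 ± 0.35, adjusted p = 0.519). The 95% intervals of these differences (1.96 standard errors) ran from -0.33 to 0.39 for Msmo1, from -0.46 to 0.34 for Hmgcs1 and from -0.60 to 0.29 for Cyp51, so differences of that size remain possible.

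Other synthesis genes rose more at 60 µM, 5 of 7 in the mevalonate arm and 3 of 9 in the sterol arm, beside 12.0% of all genes that were lower and 12.0% that were higher at 2.4 µM. Lss had 1.40 at 2.4 µM and 2.18 at 60 µM (adjusted p of the difference 4.46e-05) and Acat2 2.17 and 2.81 (adjusted p = 0.0040). In the SREBP2 list 3 of 16 genes were lower and 1 was higher at 2.4 µM, and Insig1 had 1.19 and 1.90 (adjusted p = 0.000129).

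PPARα targets and CAR and PXR targets were also compared between the concentrations. Of 22 PPARα targets, 19 were lower at 2.4 than at 60 µM, beside 12.0% of all genes. Their median L2FC over vehicle was 0.05 at 2.4 µM and 1.46 at 60 µM. Cyp4a2, a fatty acid hydroxylase, measured 11 to 24.9 CPM at 2.4 µM, 7.96 to 13.2 CPM in vehicle and 324 to 645 CPM at 60 µM. Its L2FC was 0.77 at 2.4 µM (adjusted p = 0.234) and 5.30 at 60 µM. Of 13 CAR and PXR targets, 8 were lower at 2.4 µM, among them Cyp2b2, a drug-metabolising cytochrome, at -0.08 and 4.75, and Gsta2, a glutathione transferase, at -0.40 and 3.02. Cyp4a2 and Cyp2b2 have close relatives whose transcripts a probe may share.

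Some genes had L2FC of opposite sign at the 2 concentrations. Scd had -0.11 at 2.4 µM, which was not called, and 2.22 at 60 µM. Acox2 fell at 2.4 µM (-0.76) and had 1.37 at 60 µM, Urad fell (-1.08) and had 1.23, and Phyh, of peroxisomal oxidation, fell by 0.57 on the log2 scale (adjusted p = 0.0050) and had 1.51. Acot12 and Hgd fell at 2.4 µM and had 0.20 ± 0.12 and 0.34 ± 0.15 at 60 µM. The direct contrast called all 6 genes, which for Acot12 and Hgd shows a difference between concentrations and not a rise at 60 µM. In the small GTPase, actin and YAP or SRF list, 5 of 16 genes were higher and 2 were lower at 2.4 than at 60 µM. Of all genes, 12.0% were higher and 12.0% were lower.

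**Figure D4:**
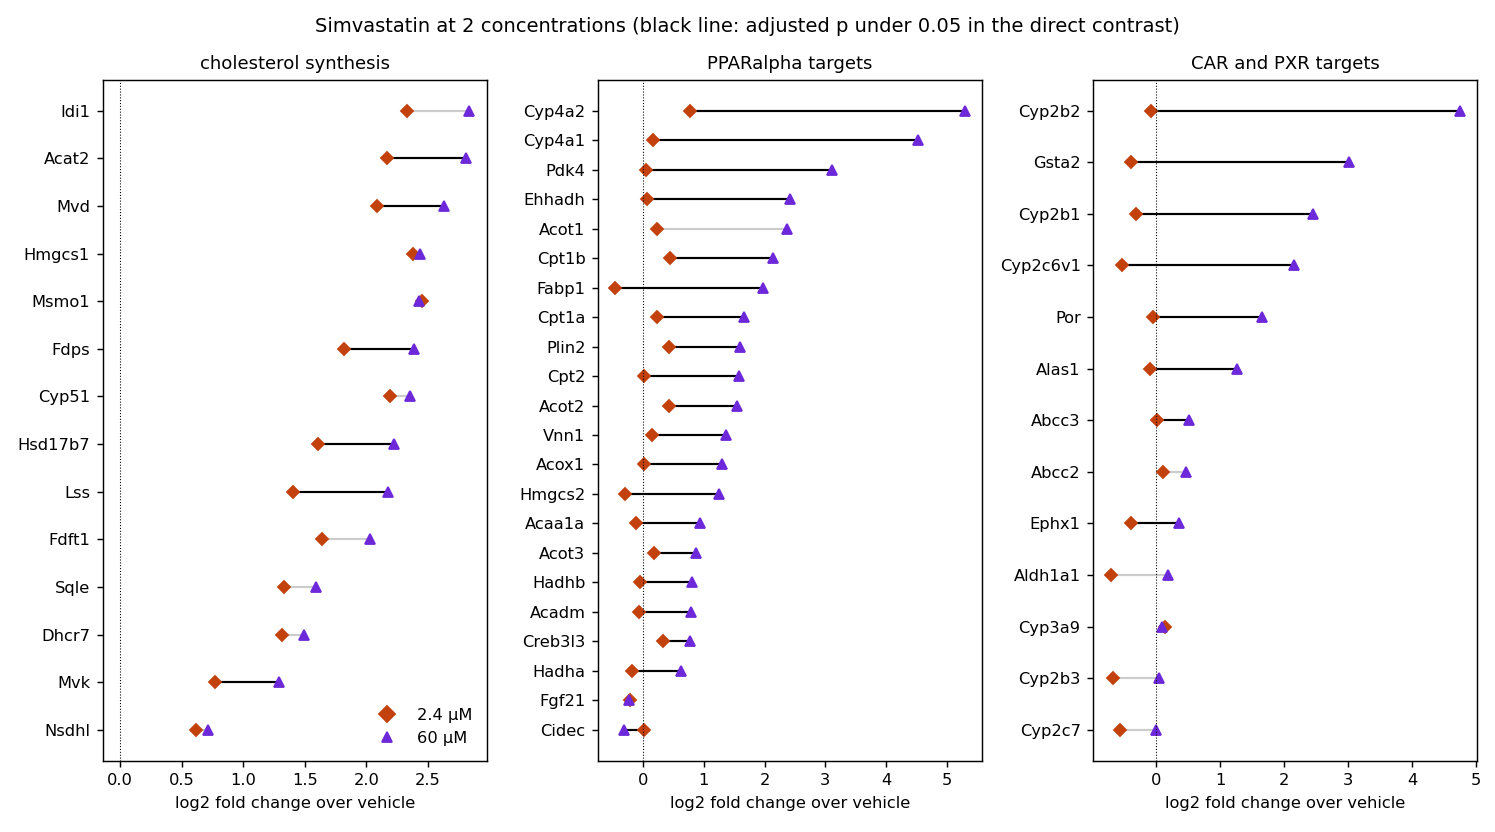
L2FC over vehicle at 2.4 µM (diamonds) and 60 µM (triangles) for tested genes of cholesterol synthesis, PPARα targets and CAR and PXR targets, joined by a black line where the direct contrast had an adjusted p under 0.05 and a grey line elsewhere. Synthesis genes are well above 0 at both concentrations, while Cyp4a2 goes from 0.77 to 5.30 and Cyp2b2 from -0.08 to 4.75.

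Ketoconazole, an azole that inhibits the lanosterol demethylase encoded by Cyp51, was compared at 15 µM, a concentration that does not match. Its wells were on plate 5 in batch 1 and plate 3 in batch 2, apart from the simvastatin wells. It changed 5226 genes against vehicle (51.3%), and 4884 genes (47.9%) differed between it and simvastatin at 2.4 µM, so a difference in a single gene is common. All 7 mevalonate and 9 sterol arm genes rose with ketoconazole, as did 25.0% of all genes, with median L2FC of 2.88 and 2.23, beside 2.09 and 1.40 with simvastatin.

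Tested directly, 5 of 7 mevalonate and 6 of 9 sterol arm genes were lower with simvastatin (23.1% of all genes were lower and 24.8% higher), and Nsdhl was higher (0.62 and 0.28, adjusted p = 5.26e-05). Fdps had 1.82 with simvastatin and 3.28 with ketoconazole (adjusted p = 2.28e-10), and Lss 1.40 and 2.67 (adjusted p = 4.25e-12). For Hmgcs1 the values were 2.38 and 2.06 (difference 0.33 ± 0.21, adjusted p = 0.190). Abcg1 was lower with simvastatin (-2.85 and -1.96, adjusted p = 0.0192), and Srebf1 had -0.43 with simvastatin and 0.45 with ketoconazole (adjusted p = 2.39e-07). In fatty acid synthesis 12 of 14 genes were lower with simvastatin than with ketoconazole.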

How the data were processed

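TempO-Seq read counts per probe were deposited for 186 wells per assay. According to the study's methods, the authors aligned reads to rn6 with STAR 2.5.3a, allowing mismatches, and obtained the deposited counts with the Tempo-SeqR package. No normalization had been applied. Probe counts were added by gene symbol, and genes averaging 10 or more counts across all wells of an assay were kept, 10191 in the WT and 1760 in the ST assay.

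Counts were fitted in R 4.3.3 with edgeR 4.0.16 (TMM, quasi-likelihood test, Benjamini-Hochberg adjustment) over all wells of an assay, with treatment and batch as terms. Each batch was also fitted alone, and the difference between batches was tested as an interaction. Direct contrasts compared simvastatin 2.4 µM with 60 µM and with ketoconazole 15 µM. Fits that left out a well reused the dispersion trend of the full fit. Scripts were tested on simulated counts. No wells held identical values.

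Alternatives were DESeq2 1.42.0, RLE size factors, no count filter, a fold threshold, single probes, fewer wells in the fit, vehicle wells of the same plate, and each well left out. Those for genes of the SREBP2 list in the ST assay were added after seeing the data. Standard errors were taken as the size of the L2FC divided by the root of the quasi-likelihood F. Intervals of 95% on a difference are 1.96 of these standard errors and are approximate. Named were genes of the mevalonate, sterol, SREBP2 and LXR lists, up to 6 of each other list (DEGs of smallest p, then largest mean count), the 12 largest rises and falls called in each batch alone, and the 10 genes of smallest p in each test of a difference. Members, lists and tests were chosen with earlier results of these data known. Replicate numbers only name wells. Depth limits genes of few reads, and TempO-Seq reads carry no molecular identifiers, so precision was taken from the spread between wells. Some genes that the rule named are not reported here.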

Additional observations from a re-analysis of the deposited data

Results flagged for a closer look

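Among 75 genes examined in the 6 vehicle wells of batch 2, 3 had a well far from the rest, where chance alone gives about 1 in 20 groups. On the log2(CPM + 1) scale the gap to the nearest well was 0.689 of the range for Fdft1 (lowest well, 36.0 to 50.4 CPM), 0.671 for Mbtps1 (highest well, 164 to 188 CPM) and 0.642 for Fam55b (highest well, 4.00 to 7.56 CPM).

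The simvastatin effect differed between batches, by the interaction test, for 10 of the genes described here. The L2FC of batch 2 minus that of batch 1 was 1.17 for Acat2, 1.36 for Cyp51, 1.12 for Mvd, 0.88 for Fdft1 and 1.00 for Fasn, all with rises in both batches. For the others the sign differed. Car3, carbonic anhydrase 3, had -0.86 in batch 1 and 0.70 in batch 2 (difference 1.54), and Cyp2c11, the male-specific cytochrome, had -1.16 and 0.38 (1.52). Lgals2, a galectin, had -0.70 and 0.42 (1.10), the mitochondrial carrier Slc25a30 had -0.22 and 0.95 (1.15), and Ndrg1 had 0.64 and -0.36 (-1.02). Without simvastatin well 3 of batch 2 the test called 1 gene in all, so at most 1 of these calls was kept. A cause of these differences was not tested.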

How the results depend on the processing

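The 15 cholesterol synthesis genes in the WT assay and 14 in the ST assay were called in every leave-out fit (15 to 15 and 14 to 14) and with DESeq2, RLE size factors, fewer wells and vehicle wells of the same plate. Requiring an absolute L2FC of at least 1 left 12 in each assay. That threshold reduced the DEGs from 245 to 50 (WT), from 155 to 25 (ST), from 180 to 57 (batch 1), from 262 to 65 (batch 2), from 2443 to 494 (against 60 µM) and from 4884 to 1072 (against ketoconazole). Fitting only the wells compared gave 534 WT DEGs. Vehicle wells of the same plate gave 85 ST DEGs, 437 in batch 2 and 52 batch differences. DESeq2 gave 288 WT and 174 ST DEGs. Which side held more genes turned in at least 1 alternative for every set of DEGs but those against ketoconazole. WT DEGs went from 115 higher and 130 lower to 28 and 22 with the fold threshold, and ST DEGs from 68 and 87 to 17 and 8 with the fold threshold and 47 and 38 with vehicle wells of the same plate. Batch differences went from 11 and 3 to 24 and 28 with vehicle wells of the same plate.

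With each well left out, counts ran from 165 to 278 (WT), 95 to 184 (ST), 94 to 147 (batch 1), 73 to 344 (batch 2), 1 to 40 (batch differences), 2016 to 2465 (against 60 µM) and 4546 to 4807 (against ketoconazole). Counts moved by more than 1.5 times in batch 1 without simvastatin well 3 (94) or vehicle wells 1 or 2 (105 each), in batch 2 without simvastatin wells 1 (106) or 3 (73), and in the ST assay without simvastatin well 1 of batch 1 (95). Called batch differences became 8 and 7 without simvastatin wells 1 and 3 of batch 1, 7 and 5 without vehicle wells 1 and 2 of batch 1, and 9, 40 and 1 without simvastatin wells 1, 2 and 3 of batch 2. The cause was not tested. No paired analysis was possible because the labels carry no replicate numbers, and batch was a term of the fit. Each batch holds 1 rat, and genes of few reads are limited by depth.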
